A study of Homo sapiens with 15 samples.

Results

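ETS family transcription factors were followed at the RNA level through a knockdown/rescue experiment in A673 cells, an established Ewing sarcoma line. The 10 genes described are FLI1, ERG, ETS1, ETS2, ETV1, ETV4, ETV5, ETV6, ELK3 and GABPA, of 57820 gene identifiers counted. They come from a list of family members, with no cutoff on expression, and the list was chosen with earlier results of these data known. A further 18 ETS genes serve as the rest of the family. Each gene matched 1 row of the count table by symbol, and all 10 passed the filter of an average of at least 1 count per library.

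The series holds 15 RNA-seq libraries, 3 for each of 5 conditions, and every condition carries a retrovirally delivered shRNA and a second retroviral vector. In iLuc cells the shRNA is directed at luciferase and the second vector is empty, which leaves endogenous EWS/FLI (endo-EF) in place. In iEF cells the shRNA is directed at EWS/FLI and the second vector is likewise empty, and the other 3 conditions received that same shRNA with a 3XFLAG-tagged EWS/FLI cDNA. WT-EF cells received the wildtype cDNA, Δ22 cells (del22 in the labels) a cDNA that lacks almost all of the EWS domain, and DAF cells a cDNA with tyrosine to alanine changes in the EWS domain. Cells were transduced with the shRNA on day 1 and with the second vector on day 5. Selection in puromycin (2 µg/mL) and hygromycin B (400 µg/mL) ran to day 16, so each library is a selected population of 1 cell line with the cDNA under a viral promoter.

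ETS proteins share a DNA-binding domain, the ETS domain, that recognizes a GGAA core. In Ewing sarcoma a translocation joins the first part of EWSR1 to the ETS domain of FLI1, and the fusion protein EWS/FLI binds ETS sites and repeats of GGAA. The family includes activators, such as ETS1, ETS2 and GABPA, and repressors, such as ETV6, so a cell with EWS/FLI holds several proteins able to read the same core. The comparisons ask how the RNA of these other readers differed with endo-EF, without it and with each rescue construct.

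The members are placed here on GRCh37, the assembly that hg19 corresponds to. ETS1 (chr11:128328656-128457453, minus strand) and FLI1 (chr11:128556430-128683162, plus strand) lie 99.0 kb apart. ERG (chr21:39751949-40033704, minus strand) and ETS2 (chr21:40177107-40196879, plus strand) lie 143.4 kb apart, and GABPA (chr21:27106881-27144771, plus strand) is on the same chromosome. ETV6 (chr12:11802608-12048311) and ELK3 (chr12:96588153-96663602) are both on the plus strand of chromosome 12. ETV1 (chr7:13930854-14031050), ETV4 (chr17:41605212-41656988) and ETV5 (chr3:185764103-185828107) are on the minus strands of separate chromosomes.

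Promoters are shown because the family's own genes can carry the GGAA core that the family reads. RefSeq entries on GRCh38.p14, which run from 250 bases before to 50 bases after a start, were matched for 6 members (16 entries), namely ERG, ETS2, ETV1, ETV6, ELK3 and GABPA. FLI1, ETS1, ETV4 and ETV5 were not matched. The 120 bases just before the start of 3 of them are printed on the plus strand, 5′ to 3′, with GGAA and its reverse complement TTCC in capitals. They are ETV6 at chr12:11649554-11649673, the first start of ELK3 at chr12:96194255-96194374 and GABPA at chr21:25734852-25734971.
ETV6: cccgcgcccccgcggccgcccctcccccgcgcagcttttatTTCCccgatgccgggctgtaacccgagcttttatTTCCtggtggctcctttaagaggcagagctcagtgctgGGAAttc
ELK3: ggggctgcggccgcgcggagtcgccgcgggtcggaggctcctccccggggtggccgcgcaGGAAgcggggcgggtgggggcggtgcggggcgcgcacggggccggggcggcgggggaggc
GABPA: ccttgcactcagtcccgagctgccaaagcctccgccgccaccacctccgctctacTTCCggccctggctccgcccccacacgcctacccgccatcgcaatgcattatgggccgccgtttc

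Over the whole entries, and with both strands counted, GGAA occurred between 1 and 8 times per entry of a member (median 4.0). It occurred in 95.5% of all 35116 promoter entries, with a median of 3.0, so the core alone does not set these promoters apart. The tandem GGAAGGAA, which overlaps the single core, was in 2 of the 16 entries, both of ETV1, and in 3.67% of all entries. These 2 entries (chr7:13990653-13990952 and chr7:13990657-13990956) overlap almost fully, so they are not separate cases. Entries of 1 gene can overlap elsewhere too. The longer CCGGAAGT was in 1 of the 16 entries, that of GABPA, on the reverse strand, and in 4.14% of all entries. These are matches of letters only.

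Total counts per library ranged from 28659475 to 41859880, with a median of 32943231. Levels of 1 gene between conditions are given as CPM, which are counts scaled to a common library size with TMM factors, and levels between genes as TPM, which also divide by gene length. Of the Ewing sarcoma markers, NR0B1, NKX2-2, STEAP1 and PRKCB were higher in iLuc and in WT-EF than in iEF, CCND1 was not past the cutoff in either comparison, and CD99, a surface marker of this tumor, had at most 3 counts in any library, an uncertain value since the gene has near-identical copies on 2 chromosomes. Summed leukocyte markers were at 0.397 to 4.79 CPM and summed epithelial markers at 6.79 to 21.4 CPM over the 15 libraries, of which CDH1 had at most 3 counts. Summed endothelial markers, 5 of 6 matched, were at 21.2 to 80.2 CPM, mostly KDR and EMCN, while CDH5, TEK and VWF had at most 22 counts. They were 50.5 to 80.2 CPM in DAF against 21.2 to 36.2 CPM in iEF. The part of these markers in the results below was not tested. GEO's labels do not say whether libraries of 1 condition came from separate cultures, so p-values measure the spread between these libraries.

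FLI1 was examined first because the shRNA targets its fusion transcript. FLI1 had 48.0, 47.8 and 52.4 CPM in the iLuc libraries and 12.9, 15.5 and 15.3 CPM in iEF. All 3 iEF libraries were thus below all 3 iLuc libraries, with 3.41-fold more FLI1 RNA in iLuc (log2 fold change 1.77 ± 0.10 SE, edgeR quasi-likelihood test, adjusted p = 7.94e-09). In these bulk samples, fewer cells with a transcript and less of it per cell cannot be told apart. FLI1 counts pool the endogenous fusion, any normal FLI1 RNA and the cDNA, and no count separates them.

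In the rescued cells FLI1 had 16.0, 18.0 and 18.7 CPM with WT-EF, 24.4, 32.9 and 36.2 CPM with Δ22 and 22.1, 23.6 and 27.3 CPM with DAF. Every rescue library was above every iEF library and below every iLuc library. However, the cDNA covers only part of the gene's exons, so counts of rescued cells and of iLuc do not compare numbers of transcripts. FLI1 rose over iEF with Δ22 (log2 fold change 1.09 ± 0.10 SE, edgeR adjusted p = 0.000446) and with DAF (0.74 ± 0.10 SE, edgeR adjusted p = 0.000335). Of 26 alternatives, the call for Δ22 was lost in 1, without replicate 2 of all conditions (1.09, edgeR adjusted p = 0.134). With WT-EF the difference was 0.27 ± 0.10 SE on the log2 scale (95% interval 0.06 to 0.49, edgeR adjusted p = 0.0538), and it passed the cutoff in 12 of 26 alternative analyses. Directly compared, WT-EF cells had 1.76-fold less FLI1 RNA than Δ22 cells (edgeR adjusted p = 2.59e-05) and 1.38-fold less than DAF cells (edgeR adjusted p = 0.00264). The amount of FLI1 RNA was therefore not matched between constructs, and its part in the differences below was not tested.

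**Figure D1:**
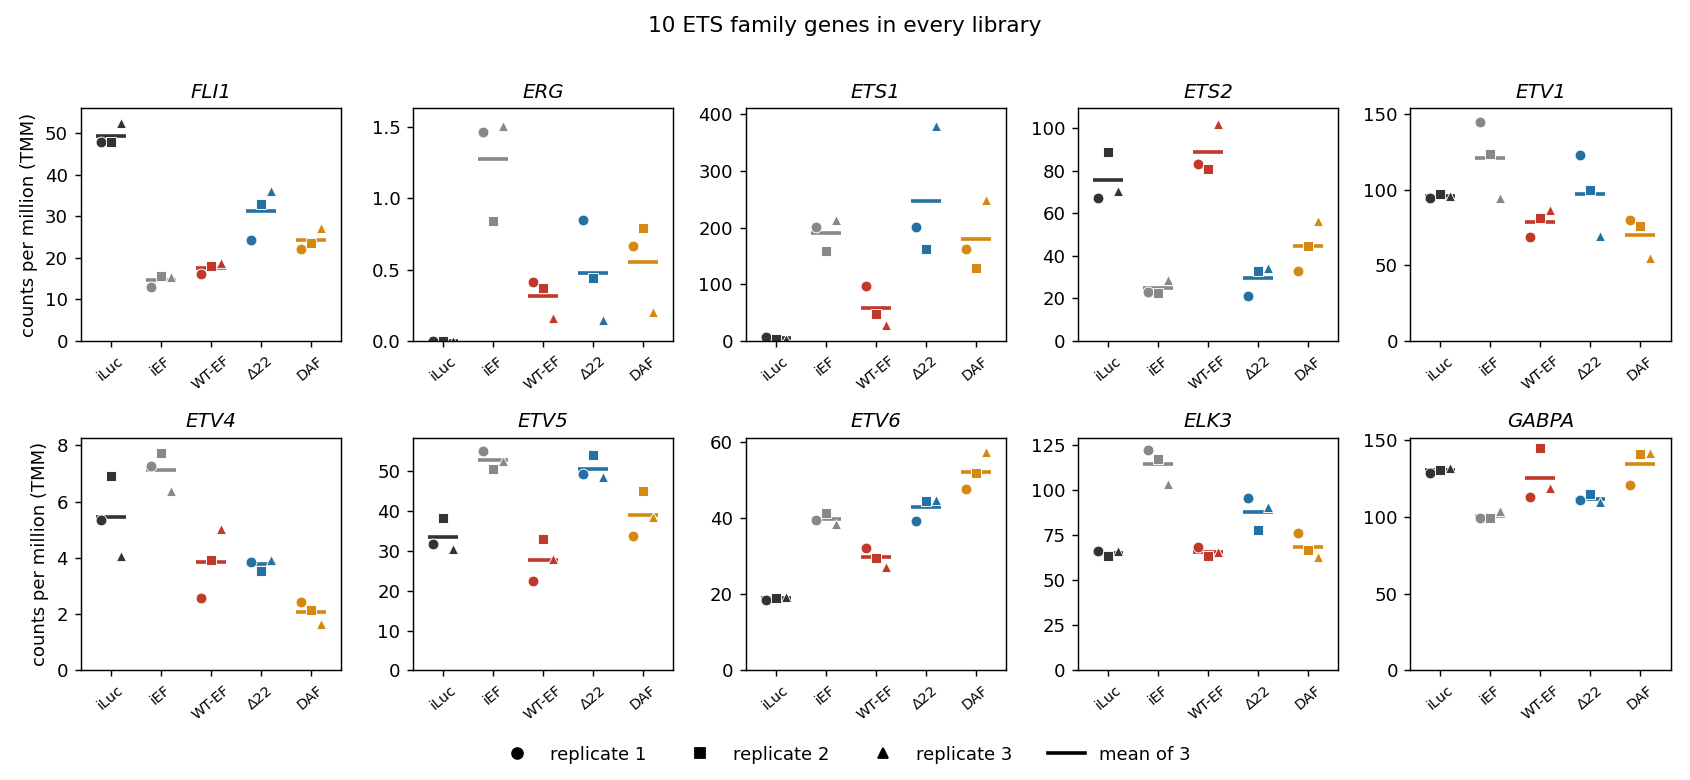
Each panel plots 1 ETS gene in CPM after TMM scaling (vertical axis, from 0), with 1 point per library, shaped by replicate number, and a line at the mean of 3 libraries in each of the 5 conditions. ETS1 is at 2.38 to 6.39 CPM in iLuc and at 158 to 214 CPM in iEF, and ETS2 shows the opposite order.

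ERG, the closest relative of FLI1 and itself a fusion partner in some Ewing tumors, was barely expressed. Not 1 count was found in the 3 iLuc libraries, where the limit of 3 counts per library is 0.0885 CPM as a mean over the 3, while the iEF libraries had 56, 25 and 52 counts (1.47, 0.843 and 1.51 CPM). The iLuc level of ERG was thus at least 14.4-fold below that of iEF (edgeR adjusted p = 2.23e-05). WT-EF libraries had 0.415, 0.37 and 0.16 CPM, all below iEF (log2 fold change -2.13 ± 0.49 SE, edgeR adjusted p = 0.0056) and at least 3.56-fold above iLuc (edgeR adjusted p = 0.00409). Without iEF replicate 3, the drop with WT-EF was -1.43 (edgeR adjusted p = 0.0188). With Δ22 (-1.56 ± 0.48 SE, edgeR adjusted p = 0.145) and DAF (-1.31 ± 0.47 SE, edgeR adjusted p = 0.105) the differences from iEF did not pass. WT-EF itself did not differ past the cutoff from Δ22 or from DAF. With any 1 library left out, the edgeR adjusted p was at least 0.311 against Δ22 and 0.143 against DAF. A drop of ERG particular to WT-EF is thus not shown.

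ETS1, an activator known from lymphocytes and endothelium, had the widest range of the 10 genes. Its level was 6.39, 2.38 and 4.03 CPM in iLuc and 201, 158 and 214 CPM in iEF, a 46.5-fold difference with no overlap (log2 fold change -5.54 ± 0.43 SE, edgeR adjusted p = 1.15e-07). WT-EF libraries had 96.9, 48.3 and 28.5 CPM, below every iEF library (-1.73 ± 0.36 SE, edgeR adjusted p = 0.0017) and above every iLuc library. The wildtype cDNA thus left ETS1 14.0-fold above iLuc (log2 fold change 3.81 ± 0.41 SE, edgeR adjusted p = 2.43e-05). With DESeq2 on the ComBat-adjusted counts both differences were smaller, at -3.40 for iLuc against iEF and 1.98 for WT-EF against iLuc on the log2 scale.

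Neither mutant construct changed ETS1 past the cutoff. Δ22 libraries had 201, 162 and 380 CPM and DAF libraries 163, 129 and 249 CPM, both overlapping iEF. The intervals of the log2 difference from iEF ran from -0.39 to 1.07 with Δ22 and from -0.83 to 0.63 with DAF, and both intervals hold 0. WT-EF was lower than DAF by 3.10-fold (edgeR adjusted p = 0.00299) and lower than Δ22 by 4.21-fold (edgeR adjusted p = 0.000501). The size of the ETS1 contrast rested partly on the libraries numbered 3, where WT-EF was lowest and both mutants were highest. Without WT-EF replicate 3, WT-EF against DAF was -1.14 on the log2 scale (edgeR adjusted p = 0.00219), and without replicate 3 of all conditions it was -1.05 (edgeR adjusted p = 0.000277).

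ETS2, the paralog of ETS1, ran the other way. It had 67.0, 88.8 and 70.4 CPM in iLuc and 23.0, 22.6 and 28.5 CPM in iEF, so that endo-EF cells held 3.06-fold more (log2 fold change 1.61 ± 0.15 SE, edgeR adjusted p = 5.89e-07). WT-EF brought ETS2 to 82.9, 80.9 and 102 CPM, which overlapped iLuc. The difference between WT-EF and iLuc was 0.23 on the log2 scale with an interval from -0.08 to 0.53. DAF gave an intermediate level of 32.8, 44.4 and 56.2 CPM, above every iEF library (0.82 ± 0.15 SE, edgeR adjusted p = 0.00229) and 2.03-fold below WT-EF (edgeR adjusted p = 0.000117). Δ22 libraries were at 21.2, 32.7 and 34.2 CPM, not past the cutoff against iEF (0.23 ± 0.15 SE, edgeR adjusted p = 0.564).

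Both pairs of neighbouring ETS genes held 1 gene that was higher and 1 that was lower in iLuc than in iEF. FLI1 was higher and ETS1 lower on chromosome 11, and ETS2 higher and ERG lower on chromosome 21. However, FLI1 counts include the translocated allele, whose transcript the shRNA targets in iEF, so the direction of FLI1 was set by the design.

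ETV1, ETV4 and ETV5 form the PEA3 group, activators whose RNA is known to follow receptor tyrosine kinase signalling and to be held down by the repressor CIC. ETV5 was the group's member that differed most clearly between iLuc and iEF. Its level was 31.6, 38.3 and 30.4 CPM in iLuc against 55.0, 50.6 and 52.6 CPM in iEF (log2 fold change -0.67 ± 0.11 SE, edgeR adjusted p = 0.000177). WT-EF lowered it to 22.4, 32.9 and 28.0 CPM (-0.94 ± 0.11 SE, edgeR adjusted p = 1.63e-05). Δ22 libraries stayed within the iEF range or close to it at 49.3, 54.1 and 48.5 CPM (interval of the log2 difference -0.30 to 0.17). DAF libraries lay between at 33.8, 44.9 and 38.5 CPM, below iEF (-0.45 ± 0.11 SE, edgeR adjusted p = 0.0168) and above WT-EF, which was 0.49 lower on the log2 scale (edgeR adjusted p = 0.00368). The call for DAF against iEF held in 18 of 26 alternatives and was lost, for example, without iEF replicate 1 (-0.33, edgeR adjusted p = 0.123), and also when iEF replicate 3 or any DAF library was left out.

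ETV1 and ETV4 did not differ past the cutoff between iLuc and iEF. ETV1 had 94.5, 97.5 and 96.0 CPM in iLuc and 145, 124 and 94.3 CPM in iEF, which overlapped (log2 fold change -0.31 ± 0.16 SE, edgeR adjusted p = 0.146). WT-EF libraries had 69.1, 81.1 and 86.8 CPM, lower than iEF (-0.58 ± 0.16 SE, edgeR adjusted p = 0.0143), though this was lost without any 1 of iEF replicates 1 and 2 and WT-EF replicates 1 and 2, with the highest value without WT-EF replicate 1 (-0.37, edgeR adjusted p = 0.121). DAF libraries had 79.9, 76.1 and 54.7 CPM (-0.78 ± 0.16 SE, edgeR adjusted p = 0.00623), and Δ22 libraries spread from 69.5 to 123 CPM.

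ETV4, the least abundant of the group, was lowest with DAF. DAF libraries had 2.42, 2.16 and 1.64 CPM against 7.28, 7.72 and 6.37 CPM in iEF, a 3.43-fold drop (log2 fold change -1.78 ± 0.25 SE, edgeR adjusted p = 0.000392). WT-EF libraries had 2.58, 3.91 and 5.03 CPM, below iEF as well (-0.89 ± 0.24 SE, edgeR adjusted p = 0.0106), a call lost without WT-EF replicate 1 (-0.60, edgeR adjusted p = 0.0651). WT-EF exceeded DAF by 0.89 ± 0.25 SE on the log2 scale (edgeR adjusted p = 0.0148), and this call held in 20 of 26 alternatives, falling to 0.55 (edgeR adjusted p = 0.0904) without WT-EF replicate 3 and being lost also without DAF replicate 2 or 3. Δ22 libraries were tightly placed at 3.87, 3.55 and 3.93 CPM, all below iEF, but the difference did not pass (-0.91 ± 0.24 SE, edgeR adjusted p = 0.0798). This difference was close in size to that of WT-EF (-0.89). WT-EF against Δ22 did not pass either, with an edgeR adjusted p of 0.353 or more when any 1 library was left out. An exon stretch of 68 bases of ETV4 overlaps DHX8 on the opposite strand and 164 bases of ETV5 overlap DGKG on the same strand, and reads there could not be assigned with certainty.

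ETV6, a repressor of the family, differed in direction between the 2 constructs that keep an EWS domain. It had 18.6, 19.1 and 19.3 CPM in iLuc and 39.4, 41.3 and 38.3 CPM in iEF, 2.09-fold less with endo-EF (log2 fold change -1.06 ± 0.10 SE, edgeR adjusted p = 6.20e-07). WT-EF libraries had 32.1, 29.6 and 27.2 CPM, below iEF (-0.42 ± 0.10 SE, edgeR adjusted p = 0.00399) and 1.56-fold above iLuc (edgeR adjusted p = 0.000379). DAF libraries had 47.5, 51.7 and 57.3 CPM, all above iEF (0.39 ± 0.10 SE, edgeR adjusted p = 0.0159). Compared with each other, WT-EF was lower than DAF by 0.81 ± 0.10 SE on the log2 scale in all 3 replicate sets (edgeR adjusted p = 2.91e-05), and this difference passed in all 26 alternatives. The rise with DAF over iEF alone was less firm, since it was lost without DAF replicate 3 (0.31, edgeR adjusted p = 0.118) and without iEF replicate 3. Δ22 libraries had 39.2, 44.4 and 44.7 CPM and did not pass against iEF (0.11 ± 0.10 SE, edgeR adjusted p = 0.714).

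ELK3, a ternary complex factor that acts with SRF and is best known in endothelium, was lower than in iEF in every library that held a form of EWS/FLI. The iEF libraries had 122, 117 and 103 CPM, the iLuc libraries 66.1, 63.4 and 66.1 CPM and the WT-EF libraries 68.1, 63.2 and 65.8 CPM. ELK3 fell by about the same amount with endo-EF (-0.80 ± 0.09 SE, edgeR adjusted p = 2.71e-06) and WT-EF (-0.79 ± 0.09 SE, edgeR adjusted p = 7.14e-06), and WT-EF differed from iLuc by 0.01 (interval -0.17 to 0.19). DAF libraries had 76.3, 66.4 and 62.7 CPM (-0.73 ± 0.09 SE, edgeR adjusted p = 0.000111), and the interval of WT-EF over DAF was -0.24 to 0.13 on the log2 scale. ELK3 had the smallest fitted difference between WT-EF and DAF of the 10 genes, at -0.06. Δ22 libraries lay in between at 95.3, 77.6 and 90.2 CPM, below iEF by -0.38 ± 0.09 SE at the edge of the cutoff (edgeR adjusted p = 0.0461). That call held in 7 of 26 alternatives and was lost when any 1 of 14 libraries was left out, so it rests on the exact set of libraries, while WT-EF against Δ22 (-0.41 ± 0.09 SE, edgeR adjusted p = 0.00176) passed in all 26.

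GABPA encodes the DNA-binding subunit of GABP, which serves promoters of ribosomal and mitochondrial genes, and it changed least of the genes called in iLuc and of those called in WT-EF against iEF. GABPA had 129, 131 and 132 CPM in iLuc and 99.4, 99.4 and 104 CPM in iEF, a 1.29-fold difference (log2 fold change 0.37 ± 0.09 SE, edgeR adjusted p = 0.00268). It was also higher than iEF with WT-EF at 113, 145 and 119 CPM (0.31 ± 0.09 SE, edgeR adjusted p = 0.0122) and with DAF at 121, 141 and 142 CPM (0.41 ± 0.09 SE, edgeR adjusted p = 0.00609). Without WT-EF replicate 2, the highest of that condition, the first of these was lost (0.21, edgeR adjusted p = 0.0726). Δ22 libraries, at 111, 115 and 110 CPM, were above every iEF library but did not pass (0.15 ± 0.09 SE, edgeR adjusted p = 0.48). Exons of GABPA and ATP5PF overlap by 692 bases on opposite strands, and whether counting used strand is not stated, so part of the GABPA counts is uncertain.

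**Figure D2:**
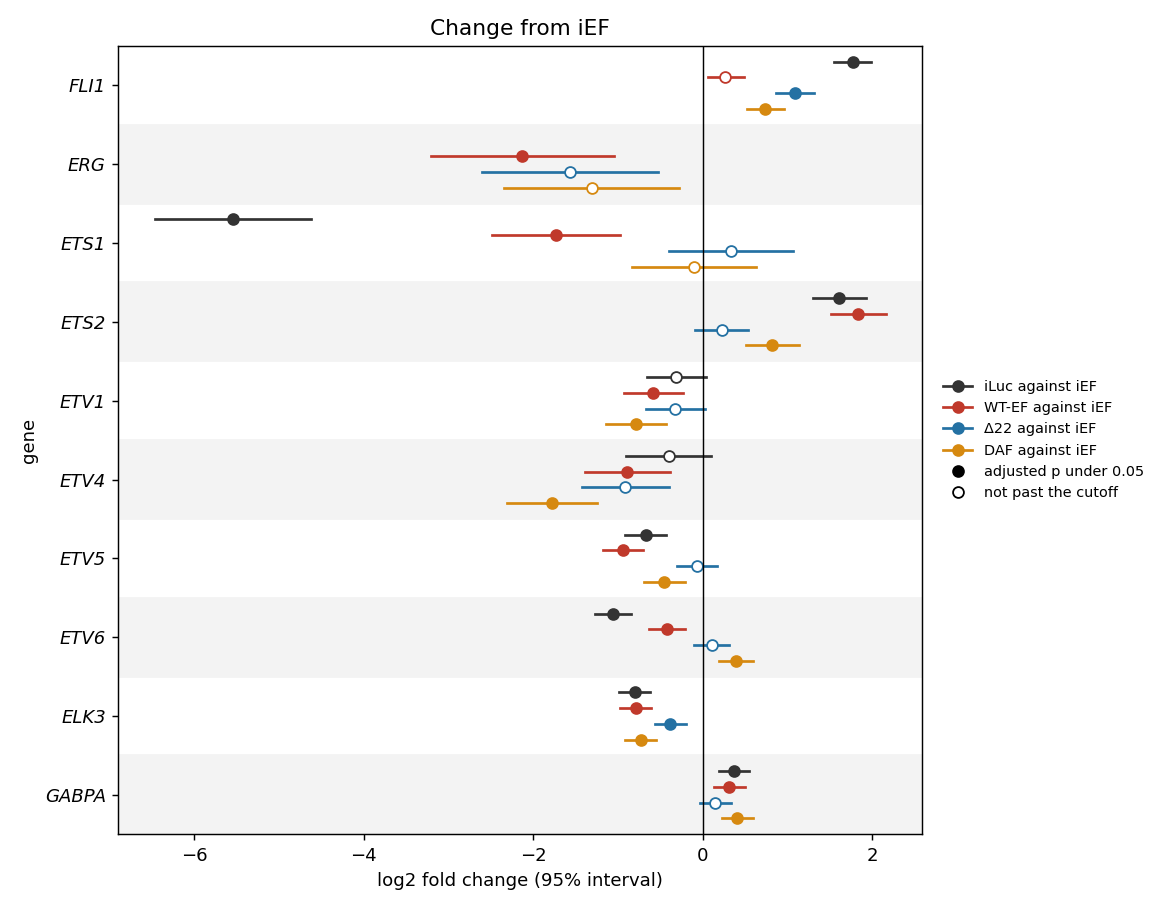
Log2 fold change of each gene (horizontal axis) for iLuc, WT-EF, Δ22 and DAF against iEF, with 95% intervals, from 1 edgeR fit. Filled points have an adjusted p under 0.05. ERG in iLuc is left out because it had no counts there. For ETV6 the WT-EF point (-0.42) and the DAF point (0.39) lie on opposite sides of 0.

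Counted together, 8 of the 10 genes were called between iLuc and iEF, where 41.7% of all 28793 genes tested were called and 63.5% of the 13178 genes averaging at least 50 counts. They were 3 higher and 5 lower, where 19.5% and 22.1% of all genes were. With WT-EF against iEF, 9 of 10 were called against a background of 29.9% (49.1% of the better-counted genes), 2 higher (12.9% of all genes) and 7 lower (17.0%). With DAF against iEF, 8 of 10 were called against 11.2% (20.5% of the better-counted), 4 higher (5.00%) and 4 lower (6.19%). With Δ22 against iEF, 2 of 10 were called against 1.30% (2.65% of the better-counted), 1 higher (FLI1, 0.472%) and 1 lower (ELK3, 0.830%). FLI1 is among the genes counted as higher with iLuc, DAF and Δ22. The shRNA targets its fusion transcript and each cDNA carries FLI1 sequence, so the direction of those calls was set by the design. The 4 comparisons share the iEF libraries and are not independent. The 10 genes were chosen with earlier results of these data known, so these counts do not measure how often ETS genes respond. Of the 16 other ETS genes tested, 3 were higher and 6 lower with iLuc, and 3 and 5 with WT-EF. With DAF they were 2 and 0, and with Δ22 they were 1 and 0. The median log2 fold change of the 10 was -0.54 with iLuc, -0.69 with WT-EF, -0.28 with DAF and 0.02 with Δ22, where that of all genes was between -0.01 and 0.04.

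Direct comparisons were made for the constructs and for the distance of the rescue from cells never depleted. Against iLuc, WT-EF left 4 of 10 genes changed, with ERG, ETS1 and ETV6 higher and FLI1 lower (-1.49 ± 0.10 SE, edgeR adjusted p = 6.21e-07), beside 19.7% of all genes and 35.1% of the better-counted ones. Of all genes, 10.7% were higher and 9.03% lower. For FLI1 the cDNA covers only part of the gene's exons, so its lower count does not measure a number of transcripts. WT-EF differed from DAF at 6 of 10 genes (28.5% of all genes and 50.5% of the better-counted). ETS2 and ETV4 were higher (12.4% of all genes were) and FLI1, ETS1, ETV5 and ETV6 lower (16.1%). Against Δ22, 6 of 10 differed (30.3% of all genes and 50.9% of the better-counted). ETS2 was higher (13.1% of all genes were) and FLI1, ETS1, ETV5 (-0.88 ± 0.11 SE, edgeR adjusted p = 3.47e-05), ETV6 and ELK3 lower (17.2%).

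DAF and Δ22 did not differ past the cutoff at any of the 10 genes by edgeR, where 1.33% of all genes (0.948% higher in DAF, 0.379% lower) and 2.47% of the better-counted did. At an unadjusted p under 0.05, 8 of the 10 differed, beside 10.2% of all genes. DESeq2 called 5 on the counts, where of 17628 genes it called 470 higher and 316 lower. On the counts adjusted with ComBat it called 3, where of 17578 genes 448 were higher and 307 lower. An edgeR fit of the 6 libraries alone called 9, where of 28743 genes 1415 were higher and 1333 lower. The largest fitted differences were for ETV4, at -0.87 ± 0.25 SE (DAF lower in all 3 replicate sets, edgeR adjusted p = 0.135), and ETS2, at 0.60 ± 0.15 SE (DAF higher in all 3 sets, edgeR adjusted p = 0.0635). The 2 mutants are thus not shown to act alike on this family.

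**Figure D3:**
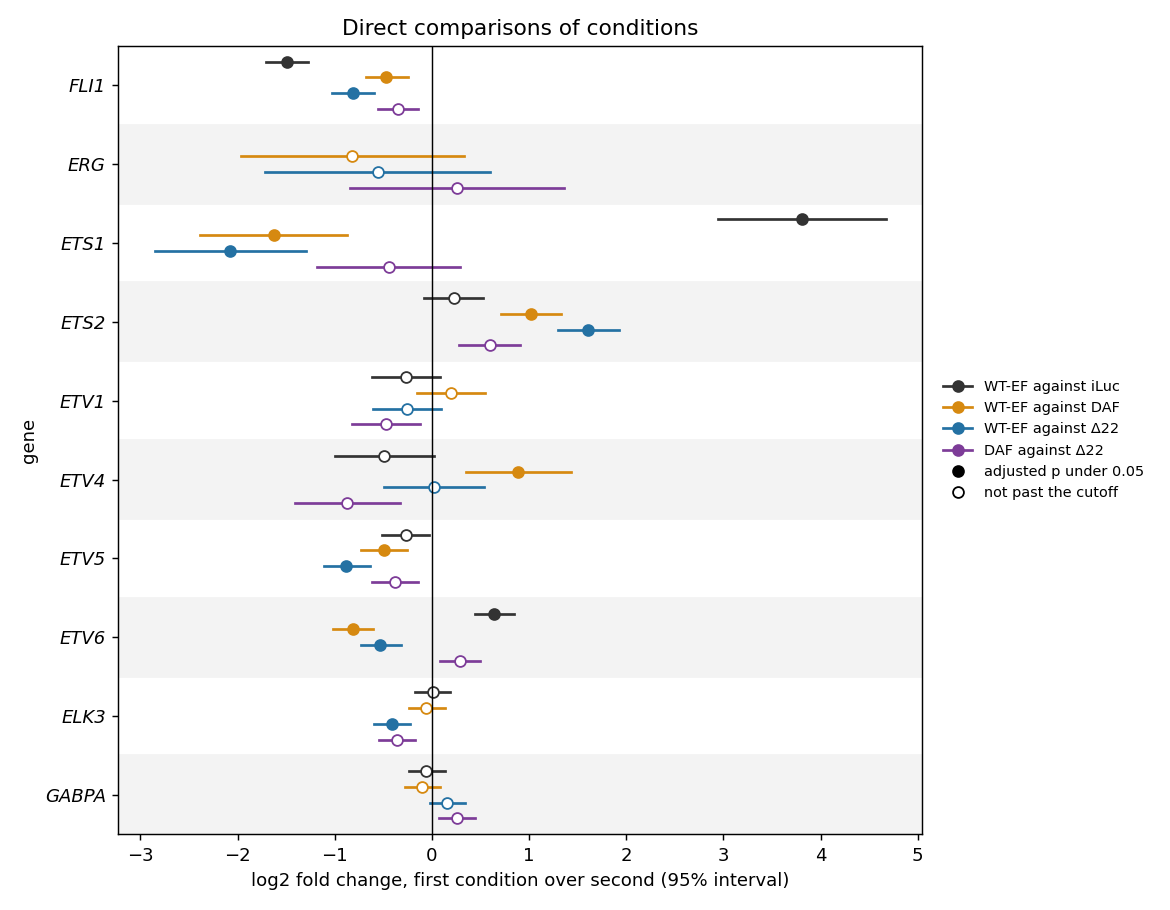
Log2 fold change of each gene (horizontal axis, first condition over second) for WT-EF against iLuc, DAF and Δ22 and for DAF against Δ22, with 95% intervals and filled points where the adjusted p is under 0.05. ERG against iLuc is left out because iLuc had no counts. ETS1 in WT-EF lies 3.81 above iLuc but 1.63 and 2.08 below DAF and Δ22, and no point of DAF against Δ22 is filled.

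Per length, the order of the family differed between conditions. In iLuc, GABPA led at 85.5 ± 3.18 TPM (SD, n = 3), followed by ETS2 at 57.0 ± 8.65 TPM and ELK3 at 52.9 ± 3.06 TPM, whose ranges overlapped each other, while ETS1 at 2.27 ± 1.16 TPM was ahead of ERG only. In iEF, ETS1 led at 91.3 ± 8.39 TPM with ELK3 at 84.6 ± 12.2 TPM, which overlapped, and GABPA followed at 60.5 ± 3.20 TPM. WT-EF returned the first 3 places to GABPA (86.5 ± 9.84 TPM), ETS2 (70.4 ± 8.65 TPM) and ELK3 (56.0 ± 3.69 TPM), none overlapping the next. ETS1 was first in Δ22 (129 ± 57.5 TPM) and first in DAF (96.1 ± 28.5 TPM), where its range overlapped that of GABPA (89.9 ± 5.89 TPM). ETV4 and ERG were among the last 3 in each condition. The TPM of FLI1, between 6.25 and 23.1 as condition means, is a rough one, since the cDNA covers only part of the gene's exons.

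As a share of the summed TPM of the 10 genes, ETS1 took 0.768% ± 0.383 in iLuc, 25.4% ± 3.41 in iEF, 9.79% ± 5.90 in WT-EF, 30.9% ± 9.93 in Δ22 and 25.6% ± 6.30 in DAF (SD, n = 3). ETS2 took 19.2% ± 2.25 in iLuc, 4.74% ± 0.686 in iEF, 21.6% ± 3.22 in WT-EF, 5.44% ± 1.33 in Δ22 and 9.10% ± 1.65 in DAF. Between iLuc and iEF no other member's share changed by as much as that of ETS1 or ETS2, and GABPA, the next, went from 28.9% to 16.8%. The sum itself was 296 ± 15.5 TPM in iLuc, 361 ± 26.1 in iEF, 326 ± 12.1 in WT-EF, 409 ± 47.4 in Δ22 and 373 ± 19.2 in DAF. These 10 genes made up between 49.8% and 57.4% of the summed TPM of all 28 ETS genes, as means of conditions.

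**Figure D4:**
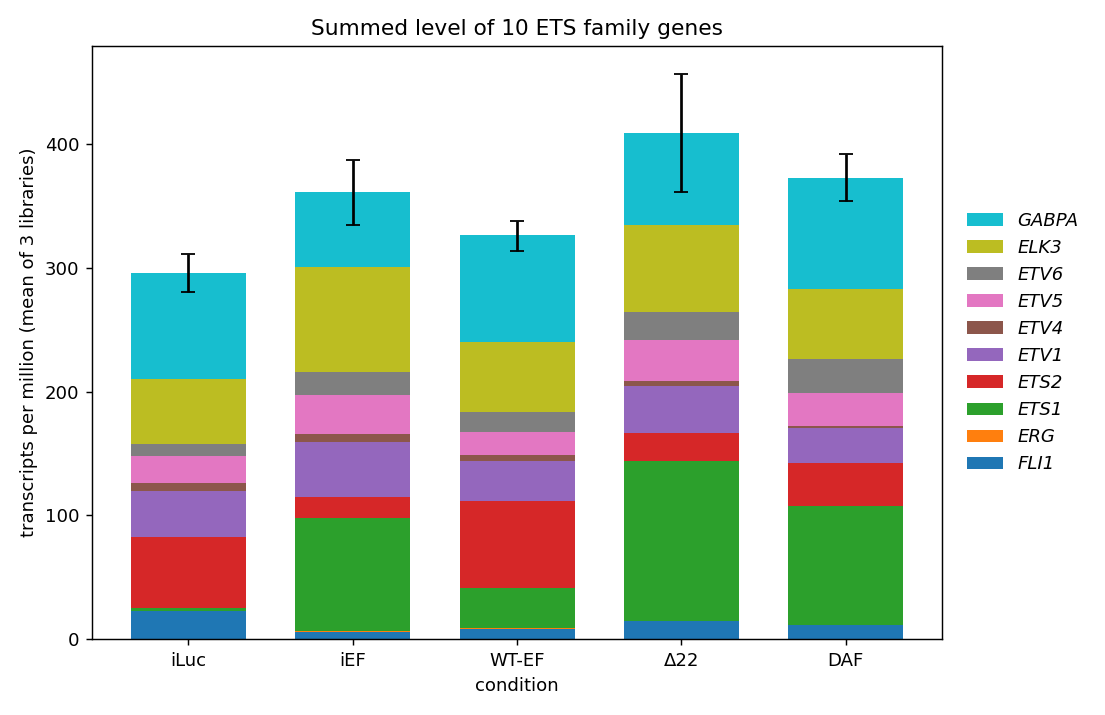
Stacked mean TPM of the 10 ETS genes (vertical axis, from 0) in each condition, with the SD of the sum over 3 libraries as error bars. The green ETS1 segment is 2.27 TPM in iLuc, 91.3 in iEF and 32.4 in WT-EF, and the red ETS2 segment is 57.0, 17.0 and 70.4 TPM.

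Of the 18 other ETS genes, 16 passed the filter. Between iLuc and iEF 3 were higher (FEV, ETV2, ELF2) and 6 lower (ERF, ETV7, ELK4, ELF1, ELF4, EHF), beside the 41.7% of all genes and 63.5% of the better-counted genes called in either direction, so the count is near the background. FEV, the ETS gene that is itself a rare fusion partner in Ewing sarcoma, had a mean of 2.68 ± 1.26 CPM in iLuc and 0.0722 ± 0.0556 CPM in iEF (SD, n = 3; log2 fold change 5.21 ± 0.51 SE), and 1.25 ± 0.675 CPM in WT-EF. ELF4 was at 6.11 ± 1.34 CPM in iLuc, 24.0 ± 5.13 CPM in iEF and 9.34 ± 4.30 CPM in WT-EF. EHF, an epithelial ETS gene, was near 0 in iLuc (0.09 ± 0.107 CPM) and at 2.13 ± 0.627 CPM in iEF.

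WT-EF against iEF called FEV, ETV3 and ELF2 higher and ETV7, ELK4, ELF4, ELF5 and EHF lower, beside 29.9% of all genes and 49.1% of the better-counted ones called in either direction. Of these, ETV7 and ELF5 were at 0.776 CPM or less in every iEF library, and ETV2, called in iLuc in 5 of 26 alternatives, at 0.757 CPM or less in every iLuc library. DAF raised ERF (0.31 ± 0.08 SE) and ETV3 (0.65 ± 0.11 SE, edgeR adjusted p = 0.00149), and Δ22 raised ETV3 (0.51 ± 0.11 SE, edgeR adjusted p = 0.0311). Of all genes, 11.2% were called with DAF and 1.30% with Δ22 in either direction, so the DAF count of 2 in 16 is near the background. Neither lowered an other ETS gene past the cutoff by edgeR (6.19% and 0.830% of all genes were lower). DESeq2 on the counts also lowered 0, where 2012 of 20419 genes were lower with DAF and 613 of 15954 with Δ22. At an unadjusted p under 0.05 DAF had 2 lower and Δ22 had 0, beside 23.5% and 13.6% of all genes in either direction. ETV3, a repressor of the family, was higher than iEF with all 3 cDNAs and did not pass in iLuc. ERF, another repressor, was lower in iLuc (-0.29 ± 0.08 SE) and higher in DAF. Between DAF and Δ22, edgeR called 0 of these 16 genes (1.33% of all genes), with 3 at an unadjusted p under 0.05 (10.2% of all genes). DESeq2 called 2 on the counts, where of 17628 genes 470 were higher and 316 lower. It called 1 on the ComBat-adjusted counts, where of 17578 genes 448 were higher and 307 lower.

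Among partners and regulators, GABPB2, a beta subunit of GABP, was higher in iLuc (0.39 ± 0.10 SE) and WT-EF (0.51 ± 0.10 SE) than in iEF, and the other beta subunit GABPB1 was lower in iLuc (-0.26 ± 0.08 SE). SRF, the partner of ELK3, was lower with WT-EF (-0.42 ± 0.11 SE, edgeR adjusted p = 0.0112). CIC, the repressor of the PEA3 group, was lower in iLuc (-0.60 ± 0.11 SE, edgeR adjusted p = 0.000507) and WT-EF (-0.35 ± 0.11 SE, edgeR adjusted p = 0.03, in 11 of 26 alternatives). COP1 and DET1, which direct PEA3 proteins to degradation, did not pass in the 4 comparisons with iEF by edgeR. EWSR1, whose counts pool the normal allele, the fusion and the cDNA, was higher in iLuc (0.24 ± 0.07 SE, edgeR adjusted p = 0.0078). For Δ22 and for DAF against iEF, edgeR called 0 of these 7 genes, beside 1.30% and 11.2% of all genes. At an unadjusted p under 0.05 there was 1 in each, beside 13.6% and 23.5% of all genes. DESeq2 called 0 on the counts in both, and on the ComBat-adjusted counts 0 for Δ22 and 1 for DAF. Over all genes, DESeq2 on the counts called 458 higher and 613 lower of 15954 with Δ22, and 1841 and 2012 of 20419 with DAF. On the ComBat-adjusted counts these were 490 and 609 of 17054 with Δ22, and 1771 and 2022 of 18625 with DAF.

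The 6 genes that CIC is known to repress along with the PEA3 group, all feedback inhibitors of the RAS/ERK pathway, were lower in iLuc than in iEF in 6 of 6 cases, beside 22.1% of all genes. Of the better-counted genes, 63.5% were called there in either direction, 49.1% with WT-EF and 20.5% with DAF against iEF. The list was chosen with earlier results of these data known. SPRY2 had a mean of 6.41 ± 0.641 CPM in iLuc and 155 ± 24.2 CPM in iEF (SD, n = 3; log2 fold change -4.57 ± 0.22 SE, edgeR adjusted p = 1.97e-09). DUSP4 fell by 2.73 on the log2 scale, SPRY4 by 2.18, SPRED1 by 1.69, DUSP6 by 1.21 and SPRED2 by 0.42. WT-EF lowered 5 of 6 (not SPRED2; 17.0% of all genes were lower), and DAF lowered SPRY4 only (-0.90 ± 0.18 SE, edgeR adjusted p = 0.0042; 6.19% of all genes were lower). With Δ22, edgeR called 0 of 6 in either direction. DUSP4, with 92.2 to 113 CPM in Δ22 and 63.7 to 68.6 CPM in iEF, was higher at an unadjusted p under 0.05 (0.62 ± 0.17 SE, edgeR adjusted p = 0.0991) and was called higher by DESeq2 on the counts and on the ComBat-adjusted counts, and 0 genes were lower by any of these. All 6 remained higher in WT-EF than in iLuc, by 0.45 (SPRED2) to 2.42 (SPRY2) on the log2 scale. ETV4 did not follow this order, as its DAF libraries had the lowest mean of the 5 conditions. For ETV1 the DAF mean was the lowest too (70.2 CPM, and 79.0 CPM with WT-EF). However, its DAF and WT-EF libraries overlapped, and WT-EF against DAF did not pass the cutoff.

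**Figure D5:**
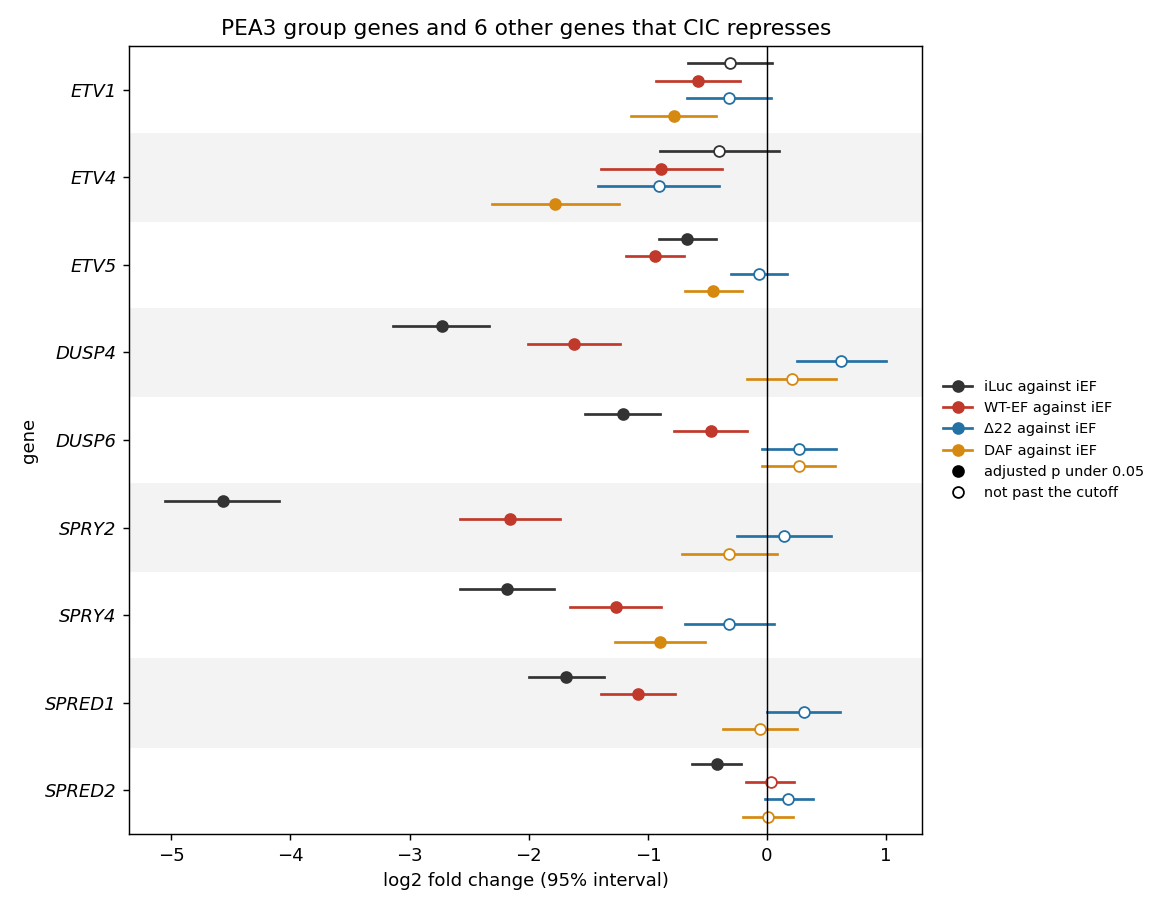
Log2 fold change against iEF (horizontal axis) of ETV1, ETV4, ETV5 and of 6 other genes repressed by CIC, with 95% intervals and filled points where the adjusted p is under 0.05. The dark iLuc points of SPRY2 (-4.57) and DUSP4 (-2.73) lie far to the left of their DAF points, while for ETV4 the DAF point (-1.78) is leftmost.

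Genes with the most similar changes were found by the root mean square difference of the 4 log2 fold changes against iEF, among 12720 other genes with a symbol and an average of at least 50 counts. For ETS1 they were ADCY8 (0.12), POSTN (0.15) and RCAN2 (0.21), and POSTN for instance had -5.58 with iLuc and -0.08 with DAF. ETS2 was nearest to LINGO2 (0.13), DUOX1 (0.14) and ZC3H13 (0.15). For ETV6 they were SLC35F6 and ATP6V0D1 (both 0.05) and STOML1 (0.08), whose shared signs with WT-EF and DAF follow from this selection. ELK3 was nearest to ANLN (0.07), TMEM14C and RTL5 (both 0.10), and GABPA to SC5D (0.02), SMAP2 (0.03) and LMF1 (0.04). In the PEA3 group, ETV1 was nearest to PARP8 (0.05), CTNNAL1 and SPIN2B (both 0.06), ETV5 to CUL4B and RGS2 (both 0.06) and EZR (0.08), and ETV4 to PACSIN3, SAMD13 and ACBD7 (all 0.26). FLI1 had no neighbour closer than SPARCL1 and CLMN (both 0.25), and ERG none closer than PTPRT (0.80), HMCN2 (0.81) and PMP22 (0.86). ERG had no counts in iLuc, so its fold change there is only a bound, and its neighbours and distances carry little meaning.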

How the data were processed

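RNA-seq of A673 cells was analysed from the deposited tables of the first profiling experiment, with condition and replicate number from the sample labels. Alignment by the authors was to hg19 with STAR (2.5.1b in the submitters' processing notes), and htseq-count (intersection-strict) gave the counts per gene. The deposited counts are whole numbers without normalization. A second table holds estimated counts that the authors adjusted with ComBat for each set of replicates, for 27002 genes, and was used, rounded and with negative values set to 0, in 1 alternative. It holds 9 of the 10 members, without ERG. A deposited table of the authors' own fold changes and p-values was not used, and neither were 3 columns of the count table that belong to other samples.

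Of 57820 gene identifiers, 55538 were matched to a symbol and a length (union of exons, GENCODE mapped to GRCh37). The annotation used for counting was not given in the sources used here, so TPM are approximate. The 28793 genes with a mean of 1 count or more were scaled by TMM and fitted in 1 quasi-likelihood model of 15 libraries with condition and replicate number (edgeR 4.0.16, R 4.3.3, DESeq2 1.42.0 as an alternative). P-values were adjusted by Benjamini-Hochberg within each of 8 comparisons over all genes, with a cutoff of 0.05. The ± of a log2 fold change is its SE, and intervals are 95%. A level of 0 was bounded by 3 counts per library (0.0782 to 0.107 CPM over the libraries), which covers counting error only. Libraries of 1 condition differed by more than counting noise. The code was tested on simulated data.

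The members, marker lists, related ETS genes, partners and CIC targets were chosen with earlier results of these data known. Genes named are all members, other ETS genes called in at least 1 comparison, the partners, regulators and CIC targets, and the 3 nearest genes per member, of which 1 is not reported here. Alternatives were other size factors, 3 other filters, DESeq2, no replicate block, fits of 6 libraries and fits without each library or replicate number, 26 in all per comparison.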

Additional observations from a re-analysis of the deposited data

How the results depend on the processing

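Of the 80 tests of a member, 43 passed the cutoff, and 31 of those passed in every alternative that gave a value. No direction of a called value reversed. Over 2072 alternative values, 1956 kept their side of the cutoff, 60 newly passed and 56 no longer passed. The number of members called for Δ22 against iEF was 2, and it was 1 with DESeq2's size factors, 4 with no filter on low counts and 0 to 3 when a library or a replicate number was left out. Over all genes, 136 were higher and 239 lower of 28793. With those size factors they were 150 and 209, and with no filter 784 and 730 of 44588. For DAF against Δ22 the number of members was 0, and it was 4 with no filter, 1 with filterByExpr, 5 with DESeq2's Wald test, 3 with DESeq2 on the ComBat-adjusted counts, 9 with the 6 libraries alone and 0 to 2 with a library or number left out. Over all genes, 273 were higher and 109 lower of 28793, and 663 and 551 of 44588 with no filter. With filterByExpr they were 272 and 131 of 19451, and with the 6 libraries 1415 and 1333 of 28743. Leaving out gave 5 to 10 members for WT-EF against iEF (5 without replicate 2 of all conditions), 5 to 8 for DAF against iEF (5 without replicate 2), 3 to 6 for WT-EF against iLuc, 5 to 6 for WT-EF against DAF, 6 to 7 for WT-EF against Δ22 and 8 to 9 for iLuc against iEF. Without replicate 2, of all 28674 genes 2180 were higher and 3441 lower for WT-EF against iEF. For DAF against iEF they were 492 and 576. The cause was not tested.

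The labels do not say what a shared replicate number stands for, but the authors adjusted each set of replicates for batch, which is why the number was a block in the model. Deviations from the condition means correlated with a median r of 0.185 between libraries of the same number (30 pairs, 21 of them over 0.1) and -0.0842 between other numbers (60 pairs), over 13178 genes. Without the replicate block, the count for Δ22 against iEF was 1 (50 of all genes were higher and 125 lower). Then 2 single calls were lost, ELK3 in Δ22 and ETV5 in DAF, both against iEF. The block changed no other call of a member.

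ETS1 kept its calls with DESeq2 on the ComBat-adjusted counts, with smaller differences. ERG had no value in that table. With the longest transcript as length, 43 of 45 pairs of members kept their order of mean TPM. Depth limits ERG, whose highest count in any library was 56.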
